A study of Mus musculus with 24 samples.

Results

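The 33 genes described here belong to interferon signalling, antigen presentation and NF-kB signalling, and they were measured in mpkCCD cells, a mouse cortical collecting duct line, treated with the vasopressin analogue dDAVP or with vehicle. They were chosen by symbol, with earlier results of these data known. Each of the 33 symbols matched 1 Ensembl gene of the 54432 in the count and TPM tables, and all 33 were among the 29743 genes that passed the low-count filter. By role they comprise 9 genes of MHC class I and its peptide loading, 6 transcription factors of the interferon and STAT branch, 4 interferon-induced effectors, 4 NF-kB subunits, 5 feedback inhibitors and 5 secreted, adhesion or other target genes. The question asked of them was whether the rise of complement C3 after dDAVP belongs to a wider change of inflammatory genes.

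Every group was wild type C57BL/6 mpkCCD cells kept on permeable filters for 6 days and then in minimal medium for 24 h before treatment of the basolateral side. Vehicle and dDAVP were each applied for 3, 6, 12 and 24 h, with 3 libraries in each of the 8 groups and 24 in all. The cells are a single line, and the labels do not say whether the 3 libraries of a group came from separate cultures, so p-values measure the spread between libraries, which may be technical. The study measured total RNA by RNA-seq with full-length cDNA, and the authors deposited estimated counts and TPM (transcript abundance per length, scaled to a fixed total in each library) for each gene.

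Type I interferons signal through JAK kinases to a complex of Stat2 and Irf9 with their partner STAT, which binds the interferon-stimulated response element (ISRE) and switches on antiviral genes such as Isg15, the Ifit genes and Bst2. Nlrc5 and Irf1 drive the MHC class I genes, whose products present peptides cut by the immunoproteasome (Psmb8, Psmb9, Psmb10) and pumped into the endoplasmic reticulum by Tap1 and Tap2. NF-kB dimers are held in the cytoplasm by inhibitors such as Nfkbia until a stimulus destroys these, and the genes that NF-kB switches on include its own inhibitors Nfkbia, Nfkbie and Tnfaip3 and secreted products such as Lcn2, Cxcl1 and Ccl2. In collecting duct cells vasopressin acts through its V2 receptor and cAMP, and its best known target is the water channel gene Aqp2.

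Sequences around the start sites were searched for short consensus forms of these elements. RefSeq windows of 300 bases (250 before to 50 after the start, GRCm38.p6) matched 28 of the 33 members, and the other 5 (Tap2, Nlrc5, Nfkb1, Relb and Ccl2) had no window. Both strands were searched, and matches of different motifs may overlap. The ISRE core, GAAA followed after any 2 bases by a second GAAA, was found in 6 of 28 members (B2m, Bst2, Ifit1, Ifit3, Isg15 and Stat2), against 3.99% of 27025 genes with a window. The 10-base NF-kB consensus was found in 11 of 28 (B2m, Bst2, Cxcl1, H2-D1, H2-K1, Irf1, Nfkb2, Nfkbia, Nfkbie, Tnfaip2 and Tnfaip3), against 9.55% of genes. The STAT element GAS, searched as TTCNNNGAA, was found in 6 of 28 (Bst2, Icam1, Irf1, Nfkb2, Psmb8 and Socs3), against 9.55%. The full cAMP response element TGACGTCA was found in 0 of 28 and in 2.03% of genes, and C3 had no match to any of the 4 motifs. A match is a description of the letters and not evidence of binding, and the lack of a match does not show that an element is absent.

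The 250 bases before the start are shown for an interferon effector with 3 overlapping ISRE cores (Isg15), an effector whose RNA was lower 3 h after dDAVP in some analyses (Ifit3), the class I light chain with both an ISRE and an NF-kB match (B2m), a class I heavy chain (H2-K1), the NF-kB inhibitor (Nfkbia) and C3. Capitals mark the ISRE cores in Isg15, Ifit3 and B2m and the NF-kB matches in B2m, H2-K1 and Nfkbia, with overlapping matches run together. In Ifit3 the cores lie on the opposite strand and read as their reverse complement, as do the NF-kB matches in B2m and Nfkbia. C3 has no capitals. Positions in GRCm38.p6 are chr4:156200819-156201068 (minus strand) for Isg15, chr19:34583279-34583528 (plus) for Ifit3, chr2:122147437-122147686 (plus) for B2m, chr17:34000348-34000597 (minus) for H2-K1, chr12:55492648-55492897 (minus) for Nfkbia and chr17:57228137-57228386 (minus) for C3.
Isg15: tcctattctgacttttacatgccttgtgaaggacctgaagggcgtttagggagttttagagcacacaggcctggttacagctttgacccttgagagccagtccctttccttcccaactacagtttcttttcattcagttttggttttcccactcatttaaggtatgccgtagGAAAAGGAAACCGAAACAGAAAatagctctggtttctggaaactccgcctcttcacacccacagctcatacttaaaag
Ifit3: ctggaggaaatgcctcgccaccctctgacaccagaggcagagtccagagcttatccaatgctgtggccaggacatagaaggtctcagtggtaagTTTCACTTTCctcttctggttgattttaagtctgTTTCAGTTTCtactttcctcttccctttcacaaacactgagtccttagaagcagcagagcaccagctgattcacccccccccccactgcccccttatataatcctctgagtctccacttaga
B2m: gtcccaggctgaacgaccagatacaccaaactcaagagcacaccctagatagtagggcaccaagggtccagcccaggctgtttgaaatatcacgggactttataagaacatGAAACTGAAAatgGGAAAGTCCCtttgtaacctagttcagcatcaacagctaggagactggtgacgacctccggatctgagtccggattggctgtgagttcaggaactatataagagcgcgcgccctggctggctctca
H2-K1: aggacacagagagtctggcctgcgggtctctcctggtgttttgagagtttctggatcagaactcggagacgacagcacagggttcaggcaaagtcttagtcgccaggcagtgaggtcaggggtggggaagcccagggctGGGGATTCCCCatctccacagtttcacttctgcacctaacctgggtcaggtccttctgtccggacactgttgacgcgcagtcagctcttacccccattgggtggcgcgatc
Nfkbia: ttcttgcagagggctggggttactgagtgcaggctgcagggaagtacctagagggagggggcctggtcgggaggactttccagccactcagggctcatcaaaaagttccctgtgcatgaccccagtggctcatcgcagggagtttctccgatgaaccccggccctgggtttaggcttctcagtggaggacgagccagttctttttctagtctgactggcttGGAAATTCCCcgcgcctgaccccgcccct
C3: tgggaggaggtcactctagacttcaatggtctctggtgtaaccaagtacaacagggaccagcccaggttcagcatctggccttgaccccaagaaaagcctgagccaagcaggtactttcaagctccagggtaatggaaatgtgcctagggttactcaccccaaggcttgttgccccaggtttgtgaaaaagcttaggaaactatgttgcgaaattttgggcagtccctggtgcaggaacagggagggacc

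Total counts per library, in units of M, were 17.25 to 27.64. Aqp2 was higher in dDAVP than in vehicle at every time, by 4.31 to 5.35 on the log2 scale. Summed TPM of 14 collecting duct epithelium markers was 1760 to 2189, and all 14 were detected in every library. The 18 immune cell markers summed to 25.8 to 46.5 TPM, most of it from Cd14 (14.7) and Csf1r (8.35). The leukocyte gene Ptprc was at 0.772 and the T cell gene Cd3e at 0.608, while Nkg7 was at 0 in 12 libraries, Tyrobp in 5 and S100a8 in 4. In bulk RNA fewer cells of a type and less RNA per cell cannot be told apart. A measure that moved with the groups is the percentage of a library's counts that fell on 1459 genes for smell and pheromone receptors (olfactory or vomeronasal), which are expressed in sensory neurons. This receptor share was 0.135% to 0.901% per library. Its vehicle means were 0.629%, 0.526%, 0.477% and 0.226% in order of time, and the dDAVP means 0.374%, 0.196%, 0.335% and 0.201%. Each comparison was therefore also fitted with the log2 of this share as a covariate, and both values are given. TPM is affected further by Gm24245, a small RNA gene that held 37.4% to 51.7% of all TPM.

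All 33 genes were detected in every library, at levels that ran from highly expressed to nearly absent. Lcn2, which encodes the iron-siderophore carrier lipocalin 2, had the highest mean over the 24 libraries at 382 TPM. The class I genes followed, with H2-K1 at 170 TPM, H2-D1 at 90.4 and the light chain B2m at 72.8. Nfkbia was at 67.5 TPM, Tnfaip2, a TNF-induced gene, at 54.5 and the NF-kB subunit Rela at 40.1. At the low end the chemokine Ccl2 averaged 0.206 TPM with 1 to 19 counts per library, the immunoproteasome subunit Psmb8 0.297, the class I activator Nlrc5 0.388 and the apoptosis inhibitor Birc3 0.626. In the order of mean level, ranges over libraries overlapped in 28 of the 32 neighbouring pairs, and the pairs that did not overlap were Lcn2 above H2-K1, H2-K1 above H2-D1, Tapbp above Nfkb2 and Isg15 above Relb. C3 averaged 3.98 TPM, between the effectors Isg15 (8.22) and Ifit1 (3.58). The plot of TPM by gene shows this order.

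**Figure D1:**
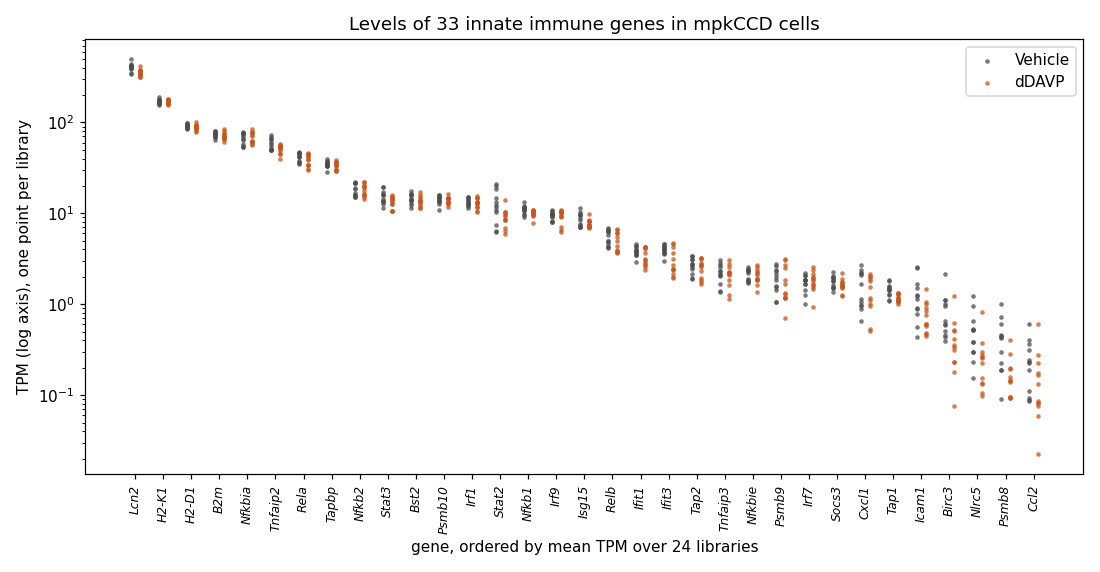
TPM of each of the 33 genes in the 24 libraries (log axis), with 1 point per library coloured by vehicle or dDAVP and genes ordered by mean. Levels run from Lcn2 (mean 382 TPM) to Ccl2 (mean 0.206 TPM), and for most genes vehicle and dDAVP libraries intermix.

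C3 rose most at the late times, where few genes of any kind were called. Of the 33 genes, 0 were called at 12 h and 0 at 24 h (edgeR's quasi-likelihood test, adjusted p under 0.05), where 0.0773% and 0.0841% of all genes tested were called. At such shares 0 of 33 is what genes at large would give, so the count does not set the members apart. DESeq2 also called 0 at each time, and 1 member had an unadjusted p under 0.05 at each. The median log2 fold change of the members was 0.07 at 12 h and -0.02 at 24 h, beside -0.05 and -0.03 over all genes tested and 0.07 and 0.00 over the 12747 genes of at least 5 CPM (counts scaled to a common library size) in some group. With the receptor share as covariate 0 members were called at either time, where 0.296% and 0.350% of genes were.

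C3 itself, the reference gene, was at 18.3, 26.5 and 25.5 CPM in the vehicle libraries at 12 h and at 57.5, 61.3 and 72.4 in the dDAVP libraries. At 24 h vehicle was at 20.6, 20.0 and 25.9 CPM and dDAVP at 68.2, 73.2 and 64.1. The lowest dDAVP library lay above the highest vehicle library at both times. In order of time its log2 fold changes were 0.47, 1.02, 1.45 and 1.63, the last with a 95% interval of 1.32 to 1.94. On the TPM scale (limma on log2(TPM + 1)) they were -0.14, 0.36, 1.10 and 1.25, and the TPM groups overlapped at 3 h and 6 h.

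At 24 h the upper 95% bound of the log2 fold change was below C3's estimate for 33 of 33 members, and the highest of these bounds, 1.14 for the low-count gene Birc3, was also below the lower bound of C3. The same 33 of 33 had their bound below C3's estimate at 12 h and at 6 h, and 13 of 33 at 3 h. Intervals lay wholly within a 2-fold change in either direction for 29 members at 3 h and for 28 at each later time. The members with wider intervals were mostly those of few counts: at 24 h Ccl2 spanned -2.36 to 1.00, Psmb8 -1.48 to 1.12, Nlrc5 -1.21 to 0.68, Birc3 -0.91 to 1.14 and Psmb9 -0.01 to 1.13. For these 5 genes a 2-fold difference could not be resolved at this depth. With the covariate the bound was below C3's estimate for 20, 29, 32 and 33 members at 3, 6, 12 and 24 h. C3 was among the 24 of 29743 genes called higher at 24 h. The share of all genes with a bound below its estimate was not computed. These counts therefore describe the members beside C3 and say nothing of a smaller shared rise. The interval plot shows the members beside C3.

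**Figure D2:**
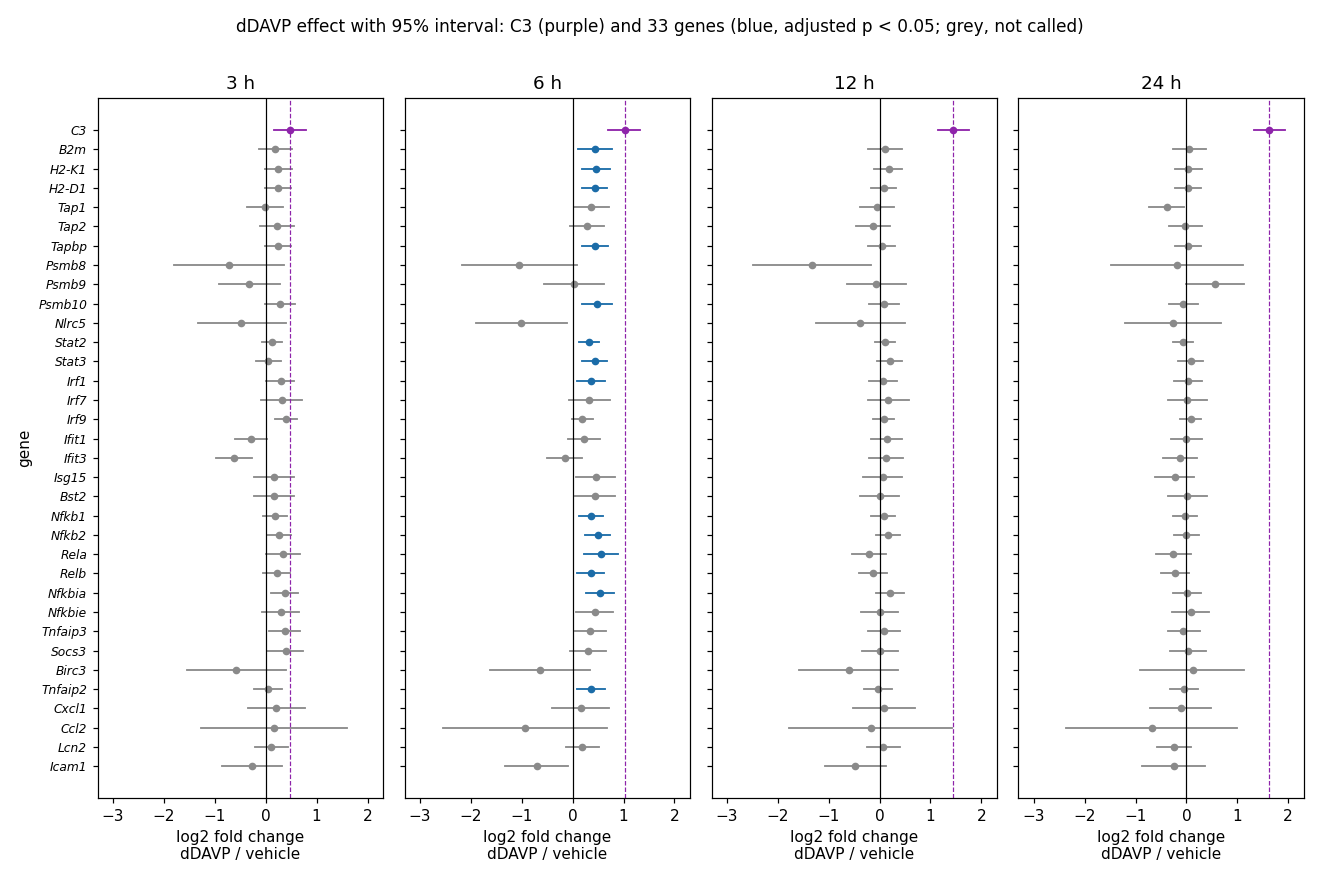
Log2 fold change of dDAVP against vehicle with its 95% interval (edgeR fit, 3 libraries a group) for C3 and the 33 genes at 3, 6, 12 and 24 h, with a dashed line at the estimate for C3. C3 is purple, members called are blue and the others grey. The line moves from 0.47 at 3 h to 1.63 at 24 h, and at 6, 12 and 24 h every member's interval ends below it.

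Lcn2, an NF-kB target that is secreted by injured tubules, did not follow C3. It was at 658, 630 and 527 CPM in vehicle and 455, 594 and 484 in dDAVP at 24 h. The groups overlapped, and the log2 fold change was -0.24 (95% interval -0.57 to 0.08). The inhibitor Nfkbia was at 127, 120 and 112 CPM in vehicle and 113, 134 and 116 in dDAVP at that time, a log2 fold change of 0.01 (-0.26 to 0.28). Isg15, a ubiquitin-like interferon product, was at 10.2, 9.55 and 8.34 CPM in vehicle and 6.75, 9.50 and 7.75 in dDAVP. Its groups overlapped too, with a log2 fold change of -0.23 (-0.61 to 0.15).

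For 2 members the groups did not overlap at 24 h, and these are neighbours that run in opposite directions from a shared start region on chromosome 17. Tap1, a subunit of the peptide pump, was at 9.40, 7.98 and 7.46 CPM in vehicle and 6.94, 5.75 and 6.21 in dDAVP. Psmb9, an immunoproteasome subunit, was at 2.16, 2.77 and 2.12 CPM in vehicle and 3.66, 3.57 and 3.17 in dDAVP. All dDAVP libraries were thus lower for Tap1 and higher for Psmb9, while 4.25% of all genes tested had all dDAVP libraries above vehicle and 5.92% had all below. The log2 fold changes were -0.39 (SE 0.166) and 0.56 (SE 0.278), and neither passed the threshold (adjusted p = 1.00 for each, edgeR). The RefSeq starts of the pair, 34187556 and 34187330, are 226 bases apart, and their windows share 275 bases.

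At 12 h 0 members had groups that did not overlap, against 2.47% of genes with dDAVP above vehicle and 2.24% below. The largest positive log2 fold changes among them were 0.21 (SE 0.131) for Nfkbia and 0.20 (SE 0.120) for Stat3, the transcription factor of the interleukin-6 family. Psmb8 had the smallest unadjusted p, 0.0263, with an adjusted p of 0.917 (edgeR). It was at 1.29, 0.304 and 0.812 CPM in vehicle and 0.388, 0.274 and 0.296 in dDAVP, and the vehicle library of 0.304 lay within the dDAVP range.

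At 3 h 0 members were called, where 0.484% of all genes tested were. DESeq2 called 0 as well, and 7 members had an unadjusted p under 0.05. The members' median was 0.18, all genes together had -0.14, and the genes reaching 5 CPM had 0.18. Groups did not overlap for 3 members with dDAVP higher (Irf9, Tnfaip3 and Socs3), against 4.04% of genes, and for 1 with dDAVP lower (Ifit3), against 8.06%.

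Irf9, the DNA-binding part of the interferon complex, was at 26.2, 28.2 and 28.4 CPM in vehicle at 3 h and 33.6, 36.5 and 39.0 in dDAVP. The 3 dDAVP libraries were all higher, by a log2 fold change of 0.40 (SE 0.103, adjusted p = 0.106 by edgeR, and 0.28 with adjusted p = 0.0839 with the covariate). Tnfaip3, the A20 protein that switches NF-kB signalling off, was at 12.5, 13.9 and 14.7 CPM in vehicle and 14.8, 21.8 and 16.2 in dDAVP, with a log2 fold change of 0.37 (adjusted p = 0.365). Socs3, an inhibitor of JAK signalling, was at 4.17, 4.43 and 5.64 CPM and 6.06, 6.39 and 6.17, with 0.39 (adjusted p = 0.365). Among the effectors Isg15 and Bst2 each had 0.16 (adjusted p = 0.590 and 0.605).

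Ifit3, an antiviral effector with 2 ISRE cores before its start, was lower. It was at 7.55, 9.63 and 8.98 CPM in vehicle at 3 h and at 5.71, 5.39 and 5.91 in dDAVP. All dDAVP libraries lay below all vehicle libraries, and the log2 fold change was -0.62 (SE 0.171, adjusted p = 0.151). With the receptor share as covariate it was -0.67 with an adjusted p of 0.0399, the 1 member called in that fit, where 0.726% of genes were called and 0.108% were called lower. Its neighbour Ifit1 was at 11.1, 15.5 and 14.7 CPM and 11.9, 11.3 and 10.5, with overlapping groups and a log2 fold change of -0.29. Values of both are uncertain, since the copies Ifit3b, Ifit1bl1 and Ifit1bl2, with 51.7, 30.2 and 43.6 counts per library on average, can share reads with them. At 6, 12 and 24 h Ifit3 had log2 fold changes of -0.16, 0.13 and -0.13.

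At 6 h 14 of the 33 members were called, all higher in dDAVP, where 38.1% of all genes tested were called, 20.9% higher and 17.2% lower. Among genes of at least 5 CPM in some group 59.1% were called, 6116 higher and 1420 lower. The members' share, 42.4%, lay between these backgrounds, and DESeq2 also called 14. Their median log2 fold change was 0.36, where all genes together had -0.39 and the genes reaching 5 CPM had 0.32. Groups did not overlap for 19 members with dDAVP higher, against 29.8% of genes, and for 3 with dDAVP lower, against 33.2%.

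The calls at 6 h were in all roles but the effectors. All 4 NF-kB subunits rose: Nfkb2, which encodes p100, was at 86.1, 95.2 and 92.9 CPM in vehicle and 127, 135 and 124 in dDAVP, a log2 fold change of 0.49 (SE 0.116, adjusted p = 0.0162). Rela, the activating p65 subunit, rose by 0.55, Nfkb1, which encodes p105, by 0.36 and Relb, the partner of p52, by 0.36. Among the 5 feedback inhibitors Nfkbia alone passed, at 117, 119 and 126 CPM in vehicle and 177, 191 and 161 in dDAVP. Its log2 fold change was 0.54 (SE 0.131, adjusted p = 0.0165), and no dDAVP library overlapped vehicle. On log2(TPM + 1) the direction turned for 3 subunits, with -0.09 for Nfkb1, -0.02 for Nfkb2 and -0.15 for Relb, while Rela had 0.04 and Nfkbia 0.03, and none of these 5 passed. When TPM was rescaled without Gm24245 only Relb turned (-0.01).

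Of the 9 class I genes 5 rose at 6 h. H2-K1, a class I heavy chain, was at 219, 211 and 246 CPM in vehicle and 309, 327 and 295 in dDAVP, a log2 fold change of 0.46 (adjusted p = 0.0201). H2-D1, the other heavy chain, rose by 0.43, B2m by 0.44, the loading chaperone Tapbp by 0.44 and Psmb10 by 0.47. All 5 turned on log2(TPM + 1), to -0.10 for H2-K1, -0.08 for H2-D1, -0.11 for B2m, -0.09 for Tapbp and -0.06 for Psmb10, and none passed there. None of the 5 turned when TPM was rescaled without Gm24245. Counts of H2-K1 and H2-D1 are uncertain because relatives such as H2-Q4 (342 counts per library), H2-Q7 (206) and H2-K2 (99.0) are near-identical in parts. Psmb8 and Psmb9 did not pass, with -1.05 (adjusted p = 0.118) and 0.03.

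Stat2, Stat3 and Irf1 were the 3 of 6 transcription factors that rose, by 0.32, 0.44 and 0.36, and Tnfaip2 by 0.36 was the 1 of 5 among the secreted and other targets. These 4 turned as well on log2(TPM + 1), where Stat2 (-0.84, adjusted p = 0.0471 by limma) and Stat3 (-0.41, adjusted p = 0.0358) were called lower and Irf1 had -0.17 and Tnfaip2 -0.17. On TPM rescaled without Gm24245 they turned too, with -0.72 for Stat2, -0.26 for Stat3, -0.01 for Irf1 and -0.00 for Tnfaip2. The effectors gave 0 of 4: Isg15 had 0.45 (adjusted p = 0.0573), the virus tether Bst2 0.44 (0.0624), Ifit1 0.23 (0.216) and Ifit3 -0.16 (0.413). The most negative values at 6 h belonged to members of few counts, such as Nlrc5 with -1.01 (adjusted p = 0.0653) and the adhesion molecule Icam1 with -0.71 (adjusted p = 0.0590). Icam1 was at 3.95, 4.56 and 3.10 CPM in vehicle and 2.58, 2.33 and 2.17 in dDAVP, without overlap.

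All 14 calls at 6 h were lost with the receptor share, 0.526% in vehicle and 0.196% in dDAVP on average, in the model. Shares did not overlap between these groups, at 0.443% to 0.581% in vehicle and 0.135% to 0.276% in dDAVP. Calls lost in the covariate fit therefore cannot tell the share from an effect of dDAVP. In that fit 0 of 33 members were called, 4 having an unadjusted p under 0.05, where 0.336% of all genes were called. The median of the members went from 0.36 to 0.09. For the named genes it left 0.18 for Nfkb2, 0.12 for Nfkbia, 0.06 for H2-K1 and -0.11 for B2m. C3 kept 0.78 of its 1.02. Cell type markers were also called at 6 h, where 38.1% of all genes tested were called, 20.9% higher and 17.2% lower. Of 14 immune markers tested 1 was called higher and 5 lower, a share near that of all genes, and with the covariate 0 were called. Summed immune marker levels were 33.1 to 40.3 TPM in vehicle against 25.8 to 27.7 in dDAVP. Fibroblast and endothelial markers gave 0 higher and 4 lower of 7, with summed levels of 4.58 to 7.98 TPM in vehicle against 1.21 to 2.72 in dDAVP. Epithelial markers gave 5 higher and 1 lower of 14, among the higher Aqp2 and Gata3 (0.49). The part of these cell types in the members' values was not tested. The calls also rested on the number of libraries: without vehicle library 1 or 2, or dDAVP library 1 or 2, 0 members were called, and without the third vehicle or dDAVP library 4 and 7 were. Calls over all genes fell as well in these refits, from 11320 to between 84 and 9333.

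The share varied within groups too. At 12 h the 3 vehicle libraries had shares of 0.745%, 0.178% and 0.508%, and B2m in them was at 57.3, 102 and 80.7 CPM, lowest where the share was highest. H2-K1 in the same libraries was at 186, 282 and 224 CPM and Nfkbia at 80.0, 118 and 101, in the same order. Low-count members ran the other way: Nlrc5 was at 3.02, 1.22 and 1.95 CPM and Psmb8 at 1.29, 0.304 and 0.812. The covariate plot sets both estimates side by side.

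**Figure D3:**
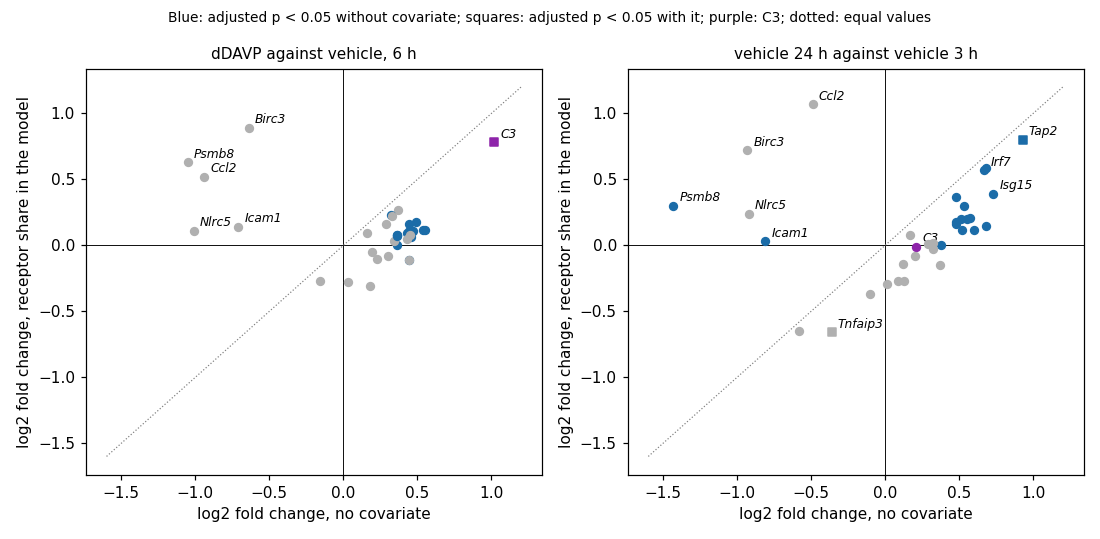
Log2 fold change of each of the 33 genes without (x axis) and with (y axis) the receptor share as covariate, for dDAVP against vehicle at 6 h and for vehicle at 24 h against 3 h, with the diagonal dotted, C3 in purple, genes called without the covariate in blue and the others grey. Squares mark genes called with the covariate (C3 and 0 members at 6 h, Tap2 and Tnfaip3 in vehicle), and most positive values at 6 h lie below the diagonal (median 0.36 without and 0.09 with it).

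Averaged over the 4 times, the effect of dDAVP was called for 12 members, 10 higher and 2 lower, where 33.1% of genes were called, 16.7% higher and 16.4% lower. This mean includes the 6 h libraries and is not separate evidence. On log2(TPM + 1) all of the 10 but Nfkbia (0.04) turned to values of -0.01 to -0.18. Members outside the 12 were called lower there by limma, among them Stat2 (-0.39), Ifit1 (-0.17), Relb (-0.14), Tnfaip2 (-0.18) and Lcn2 (-0.22). When TPM was rescaled without Gm24245, of the 10 only Stat3 (-0.11) and Nfkb1 (-0.05) turned. Leaving out 1 library gave 9 to 16 for 5 libraries (vehicle 2 and 3 and dDAVP 1 of 3 h, dDAVP 3 of 6 h and vehicle 1 of 24 h), 19 without vehicle 2 of 12 h, and 0 to 7 without any of the other 18. Over all genes these fits called 1227 to 16748, beside 9854 with every library. The 10 were H2-K1 (0.23), H2-D1 (0.19), Tapbp (0.19), Psmb10 (0.19), Stat3 (0.19), Irf1 (0.19), Irf9 (0.19), Nfkb1 (0.15), Nfkb2 (0.23) and Nfkbia (0.28), and the 2 lower were Psmb8 (-0.82) and Icam1 (-0.43). The mean effect on C3 was 1.14 (95% interval 0.99 to 1.30), above the upper bound of each of the 33. With the covariate 1 member was called, Lcn2 at -0.18 (adjusted p = 0.0278 by edgeR), where 1.22% of genes were called and 0.272% lower.

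A change of the dDAVP effect over time was called for 0 members, where 0.343% of genes were called. DESeq2 called 0, and 6 members had an unadjusted p under 0.05, the smallest being 0.00297 for Rela (adjusted p = 0.213). Without the 2 libraries of highest receptor share 2 members were called, Rela (adjusted p = 0.0351) and Tapbp (0.0439). The difference between the effects at 24 and 3 h was called for 0 members, where 0.0202% of genes were called. DESeq2 again called 0, and 5 members had an unadjusted p under 0.05: Psmb9 with a difference of 0.88, Ifit3 with 0.49, Irf9 with -0.32, Relb with -0.43 and Rela with -0.59. C3 was not called for this difference either, where 0 of 29743 genes were called higher. It passed in 9 of 25 alternatives, so this test does not set the members apart from C3. With the covariate 0 members were called for the dependence on time and 0 for the difference, where 0.256% and 0.215% of genes were.

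The vehicle libraries themselves differed over the same hours. Between 3 and 24 h in vehicle 17 members were called, 15 higher at 24 h and 2 lower, where 38.0% of genes were called, 18.4% higher and 19.7% lower. Among genes of at least 5 CPM in some group 54.2% were called. These vehicle libraries are also the controls of the dDAVP comparisons at 3 and 24 h. The median was 0.32 for the members, -0.44 for all genes and 0.30 for the genes reaching 5 CPM. Groups did not overlap for 18 members with 24 h higher, against 22.4% of genes, and for 4 with 24 h lower, against 30.1%. The mean receptor share was 0.629% at 3 h and 0.226% at 24 h. Per library it was 0.391% to 0.901% at 3 h and 0.181% to 0.301% at 24 h, without overlap. Calls lost with the covariate therefore cannot tell the share from a change over time. Immune markers summed to 33.4 to 46.5 TPM at 3 h and 26.6 to 33.1 at 24 h, and 1 was called higher and 2 lower of 14. Fibroblast and endothelial markers summed to at least 4.76 TPM in each 3 h library and to 1.44 to 3.35 at 24 h, with 5 of 7 called lower, while 7 of 14 epithelial markers were called higher. The part of other cell types in the members' values was not tested.

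Tap2, the second subunit of the peptide pump, gave the largest called rise. It was at 7.02, 6.96 and 8.74 CPM in vehicle at 3 h and 13.6, 14.7 and 15.2 at 24 h, with no overlap. The log2 fold change was 0.93 (SE 0.162, adjusted p = 0.00122 by edgeR), and 0.80 with the covariate (adjusted p = 0.0226). It was the 1 member called higher in that fit, where 0.541% of genes were, and it stayed called without each single library of these groups in turn. On the TPM scale it was not called (limma on log2(TPM + 1), 0.19, adjusted p = 0.261). With dDAVP it was at 8.69, 10.4 and 7.50 CPM at 3 h and 15.6, 11.8 and 15.3 at 24 h, so that libraries of both treatments were higher at the later time. Tap1 in vehicle was at 4.29, 5.67 and 5.55 CPM and then 9.40, 7.98 and 7.46, a log2 fold change of 0.68 (adjusted p = 0.00840, and 0.129 with the covariate).

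The 4 effectors all rose in vehicle. Isg15 was at 4.09, 6.18 and 6.66 CPM at 3 h and 10.2, 9.55 and 8.34 at 24 h, a log2 fold change of 0.73 (adjusted p = 0.00966). Bst2 rose by 0.68, Ifit1 by 0.48 and Ifit3 by 0.48. With the covariate 0 of the 4 were called, with values of 0.39 for Isg15, 0.15 for Bst2, 0.18 for Ifit1 and 0.37 for Ifit3. On log2(TPM + 1) none passed either, with 0.26 for Isg15, 0.19 for Bst2, 0.03 for Ifit1 and 0.02 for Ifit3.

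Of the transcription factors Irf9 and Irf7, an interferon-induced activator of interferon genes, rose in vehicle. Irf9 was at 26.2, 28.2 and 28.4 CPM at 3 h and 41.1, 41.8 and 36.4 at 24 h, with no overlap. The log2 fold change was 0.53 (adjusted p = 0.00308), and 0.30 with the covariate (adjusted p = 0.135). Irf7 had 0.67 (adjusted p = 0.0150), while Stat2, Stat3 and Irf1 did not pass. On log2(TPM + 1) limma called Stat2 (-0.90) and Stat3 (-0.46) lower at 24 h.

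The remaining calls in vehicle were the class I genes H2-D1 (0.48), H2-K1 (0.38), Tapbp (0.51) and Psmb10 (0.55), with Rela (0.52), Socs3 (0.57) and Lcn2 (0.60), all higher, and Psmb8 (-1.43) and Icam1 (-0.81), both lower. With the covariate none of these 9 was called. Their values in that fit were between -0.00 for H2-K1 and 0.30 for Psmb8, so that the direction of H2-K1, Psmb8 and Icam1 (0.03) turned. On log2(TPM + 1) H2-K1 (-0.09) and Socs3 (-0.00) turned, and Icam1 was called lower by limma (-0.69, adjusted p = 0.0247).

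Tnfaip3 ran against most members. In vehicle it was at 12.5, 13.9 and 14.7 CPM at 3 h and 9.73, 11.4 and 10.7 at 24 h, with every late library below every early one. Its log2 fold change was -0.36 (adjusted p = 0.0592), and -0.66 with the covariate (adjusted p = 0.0312), the 1 member called lower there, where 0.158% of genes were. The chemokine Cxcl1 had -0.58 (adjusted p = 0.0936), at 2.35, 2.31 and 2.54 CPM and then 1.49, 1.62 and 1.70. Over the whole set the covariate fit called 2 members in vehicle, Tap2 and Tnfaip3, where 0.699% of genes were called, and single libraries mattered: without vehicle library 1 of 3 h or of 24 h, 2 and 4 members were called in place of 17 by the fit without covariate, and without the second of each 13 and 7. Fits that left out 1 library called 443 to 15327 over all genes, beside 11312 with every library. The time course plot shows 7 members by library beside C3.

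**Figure D4:**
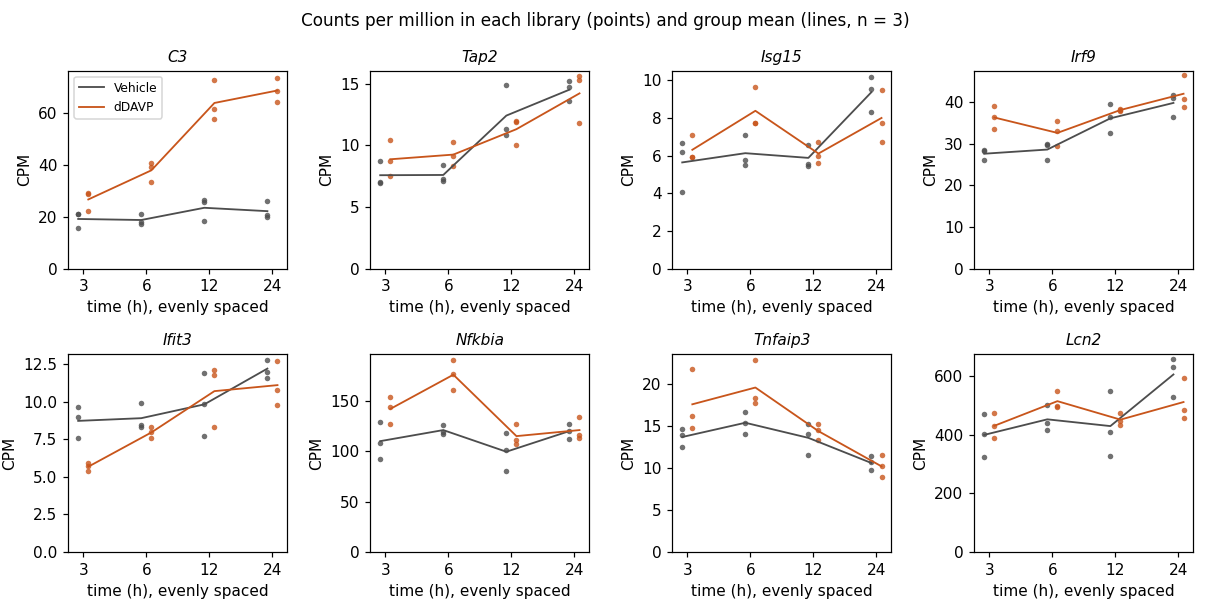
CPM of C3 and of Tap2, Isg15, Irf9, Ifit3, Nfkbia, Tnfaip3 and Lcn2 in each library at 3, 6, 12 and 24 h (times evenly spaced), with vehicle and dDAVP as separate points and lines through the group means. In CPM C3 is higher in every dDAVP library than in any vehicle library of its time, with 64.1 to 73.2 CPM in dDAVP and 20.0 to 25.9 in vehicle at 24 h, while Tap2 is higher at 24 h than at 3 h in both.

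Other genes of the same pathways were followed in fixed lists that hold no member. At 3 h, where 0.484% of all genes tested were called, 1 of 34 further NF-kB genes was called, Nfkbiz. It encodes IkB-zeta, a nuclear cofactor of NF-kB. Of 43 further interferon-stimulated genes 1 was called, Trim25, a ubiquitin ligase of RNA sensing. Nfkbiz was at 22.7, 26.1 and 30.3 CPM in vehicle and 39.4, 50.0 and 52.0 in dDAVP. The groups did not overlap, and the log2 fold change was 0.84 (adjusted p = 1.95e-04, and 3.45e-05 with the covariate at 0.71). At 6, 12 and 24 h its values were 0.70 (adjusted p = 0.00152), 0.56 (0.0872) and 0.40 (0.916). Trim25 had 0.53 at 3 h (adjusted p = 0.0110, and 8.71e-04 with the covariate at 0.40). None of 23 further antigen presentation genes, 13 interferon receptor and kinase genes, 27 inflammatory mediators tested of 33, 10 genes of the interleukin-6 family or 17 complement genes tested of 19 was called at 3 h. Of these lists 5, 2, 2, 3 and 1 genes had an unadjusted p under 0.05.

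At 12 and 24 h, where 0.0773% and 0.0841% of all genes tested were called, the same 7 lists gave 1 call at each time, C3 itself in the complement list. At 6 h, where 38.1% of all genes were called (20.9% higher) and 59.1% of those reaching 5 CPM, 16 of 34 NF-kB genes (47.1%) were called, all higher, led by Nfkbiz, the lymphotoxin receptor Ltbr (0.50) and the TNF receptor Tnfrsf1a (0.49). The interferon-stimulated genes gave 8 higher and 3 lower of 43 (25.6%), antigen presentation 6 higher and 5 lower of 23 (47.8%), and the mediators 9 higher and 2 lower of 27 (40.7%), all below the share among genes reaching 5 CPM, with the prostaglandin synthase gene Ptgs2 (0.84) at the head of the last. With the covariate C3 was the 1 gene called in the 7 lists at 6 h, and at 12 h Nfkbiz was called beside it (0.51, adjusted p = 0.00449). Of all genes 0.336% and 0.296% were called in those fits. The mean over the 4 times with the covariate, called for 1.22% of all genes, was called for Nfkbiz (0.51), Trim25 (0.20), Irf8 (0.23), a transcription factor of the interferon family, and Ptgs2 (0.48).

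Over time in vehicle, where 38.0% of all genes were called (18.4% higher and 19.7% lower) and 54.2% of those reaching 5 CPM, 18 interferon-stimulated genes were called higher and 3 lower of 43 (48.8%). The counts were 13 and 1 of 34 NF-kB genes (41.2%), 10 and 3 of 23 antigen presentation genes (56.5%) and 8 and 0 of 13 receptor and kinase genes (61.5%). With the covariate, where 0.699% of all genes were called, 3 genes of the 7 lists were called: H2-T23, a non-classical class I gene, higher (0.43, adjusted p = 0.0192), the interferon receptor subunit Ifnar2 higher (0.32, adjusted p = 0.0307), and the chemokine Ccl20 lower (-2.30, adjusted p = 7.81e-04). Ccl20 was at 2.23, 2.35 and 2.45 CPM at 3 h and 0.863, 0.692 and 0.323 at 24 h.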

How the data were processed

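Estimated counts and TPM per gene were made and deposited by the authors, with Salmon 0.14.10 and GRCm38.p6 named in the submitters' processing notes; how transcripts were summed to genes is not given in the sources used here. Each of the 24 columns in both tables was matched to a sample by its label, leaving out 0. GENCODE M21 named 54346 identifiers and not the other 86. The members and lists were chosen with earlier results of these data known.

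The estimated counts were rounded and fitted over all 24 libraries with edgeR 4.0.16 (limma 3.58.1, R 4.3.3): TMM scaling (factors 0.814 to 1.326), filterByExpr (29743 of 54432 genes), 1 mean per group, the quasi-likelihood F test, and Benjamini-Hochberg adjustment over all genes tested at 0.05. Every adjusted p of a gene comes from this test unless another tool is named. CPM were computed from the same library sizes. The deposited TPM served for levels and, as log2(TPM + 1) or log2(TPM + 0.1), for limma. Alternatives were DESeq2 1.42.0, other scaling and filters, a replicate block, the receptor share as covariate and leaving out each library. The covariate was chosen with earlier results known, and 3 alternatives were added after the data were seen. Fits were tested on simulated data. All 33 members were named, and from each other list at most the 3 genes of smallest p in a comparison. Replicate numbers did not pair the libraries. Promoter windows came from RefSeq. Figures used matplotlib 3.10.9 in Python 3.11.15.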

Additional observations from a re-analysis of the deposited data

Results flagged for a closer look

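The effect of dDAVP on C3 differed between the 4 times, with an adjusted p of 0.0328 for its dependence on time (edgeR's quasi-likelihood test) and log2 fold changes of 0.47, 1.02, 1.45 and 1.63 from 3 h to 24 h. This call held in 7 of 24 fits that left out 1 library, where the adjusted p was 0.00842 to 0.158, and in 15 of 36 alternatives in all, with an adjusted p of up to 0.287. The effect on Aqp2 had an adjusted p of 0.0300 in the same test, with log2 fold changes between 4.31 and 5.35, and its call held in 7 of the 24 fits (0.00583 to 0.158) and in 14 of the 36. None of the 33 members had such a dependence past the threshold.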

How the results depend on the processing

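Counts of called members stayed at 0 at 12 h and for the 24 h minus 3 h difference under every alternative run. At 3 h the 5 CPM filter, the covariate alone or with that filter, and limma on log2(TPM + 1), log2(TPM + 0.1) and the rescaled TPM each called 1 member, Ifit3. At 24 h the covariate with the 5 CPM filter called 1, Lcn2. At 6 h, where 14 were called, no filter gave 3, the 5 CPM filter 3, the covariate 0 with or without that filter, a threshold of 0.01 0, log2(TPM + 1) 5 and log2(TPM + 0.1) 6 (all lower), the rescaled TPM 1, and leaving out 1 library 0 to 7. For the mean effect, 12 became 6 with RLE factors, 3 with no filter, 5 with the 5 CPM filter, 1 with the covariate with or without that filter, 2 without the 2 libraries of highest share, 6 with rescaled TPM, 0 at 0.01 and 0 to 19 leaving out 1 library. On log2(TPM + 1) and log2(TPM + 0.1) members outside the 12 were called lower for the mean, among them Stat2, Ifit1, Relb, Tnfaip2 and Lcn2. Dependence on time gave 2 without the 2 libraries of highest share. For vehicle over time, 17 became 2 with the covariate, 5 with the 5 CPM filter too, 7 without the 2 libraries of highest share, 9 with log2(TPM + 1) and 9 with log2(TPM + 0.1), 6 at 0.01 and 2 to 22 leaving out 1 library. The 9 called on each TPM scale were all lower at 24 h, and of the 17 only Icam1 was among them. The replicate block gave 19 at 6 h, 16 for the mean and 19 for vehicle over time, and 0 elsewhere; same-number correlations of 0.453, -0.006 and 0.166 at 3 h and 0.002, -0.128 and -0.187 at 6 h gave no pairing. Leaving out 1 library also moved the calls over all genes. They were 84 to 9333 at 6 h, 1227 to 16748 for the mean and 443 to 15327 for vehicle over time. The cause of these changes was not tested.

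Directions turned mostly on the TPM scale. With log2(TPM + 1) the 6 h values were B2m -0.11, H2-K1 -0.10, H2-D1 -0.08, Tapbp -0.09, Psmb10 -0.06, Stat2 -0.84, Stat3 -0.41, Irf1 -0.17, Irf9 -0.33, Nfkb1 -0.09, Nfkb2 -0.02, Relb -0.15, Tnfaip2 -0.17 and Lcn2 -0.35. The mean effects were H2-K1 -0.01, H2-D1 -0.06, Tapbp -0.05, Psmb10 -0.02, Stat2 -0.39, Stat3 -0.18, Irf1 -0.05, Irf9 -0.05, Ifit1 -0.17, Nfkb1 -0.11, Nfkb2 -0.01, Relb -0.14, Tnfaip2 -0.18 and Lcn2 -0.22. Vehicle over time gave H2-K1 -0.09, Stat2 -0.90, Stat3 -0.46, Nfkb2 -0.43, Nfkbia -0.32, Socs3 -0.00, Tnfaip2 -0.32 and C3 -0.43. With log2(TPM + 0.1) the same results turned. Those that changed value were at 6 h Stat2 -0.92, Stat3 -0.44, Irf1 -0.18, Irf9 -0.37, Nfkb1 -0.10 and Relb -0.17, for the mean Stat2 -0.42, Stat3 -0.19, Irf1 -0.06, Irf9 -0.06, Ifit1 -0.22, Nfkb1 -0.12 and Relb -0.17, and for vehicle Stat2 -0.98, Stat3 -0.49, Nfkb2 -0.45, Nfkbia -0.33 and C3 -0.57. Rescaled TPM turned, at 6 h, Stat2 -0.72, Stat3 -0.26, Irf1 -0.01, Relb -0.01 and Tnfaip2 -0.00, for the mean Stat3 -0.11, Nfkb1 -0.05 and Lcn2 -0.14, and for vehicle Stat2 -0.77, Stat3 -0.31, Nfkb2 -0.27 and C3 -0.34. The covariate turned B2m -0.11 and Irf1 -0.00 at 6 h, Psmb8 0.03 and Lcn2 -0.18 for the mean, and H2-K1 -0.00, Psmb8 0.30 and Icam1 0.03 in vehicle. With the 5 CPM filter too, these were B2m -0.15 and Irf1 -0.04, Lcn2 -0.20, and H2-K1 -0.02, Nfkb2 -0.30, Nfkbia -0.28 and Icam1 0.03. The 5 CPM filter alone turned Nfkb2 in vehicle to -0.26.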

Other observations

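The deposited TPM and the counts gave opposite directions for some members. Stat2 was at 29.0 CPM and 21.0 TPM in the vehicle library of highest receptor share and at 34.4 CPM and 5.85 TPM in the dDAVP library of lowest share, so that its count was slightly higher and its TPM lower in the second. For Stat3 the same libraries gave 56.7 CPM and 19.3 TPM, then 84.0 CPM and 10.7 TPM. Nfkbia was at 92.7 CPM and 76.4 TPM in the first and 191 CPM and 73.4 TPM in the second.

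By position, 8 of the 33 members lie on chromosome 17, among them H2-K1, H2-D1, Tap1, Tap2, Tapbp, Psmb8 and Psmb9, and C3 is on the same chromosome at 57203970 to 57228136.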
